A study of Mus musculus with 15 samples.

Results

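The interaction between genotype and ezetimibe asks, gene by gene, whether the drug moved a transcript by a different amount in mice without Aster-B and Aster-C than in wild-type mice. For each gene it was the ezetimibe effect in the knockout (KO) minus the ezetimibe effect in the wild type (WT), on the log2 scale, so a positive value means a response that was more positive, or less negative, in KO. All 15 libraries entered the test, and 14299 of the 26844 genes in the table reached a normalised count of at least 10 in at least 3 libraries and were tested. The mice were male C57BL/6 animals aged 13 to 15 weeks, and RNA came from frozen distal jejunum. There were 4 WT and 3 KO libraries from mice on a control diet with 0.08% cholesterol, and 4 WT and 4 KO libraries from mice on the same diet with 0.01% ezetimibe added. The knockout was global, so it was not limited to the intestine, and the control mice of each genotype ate the same low-cholesterol diet as the treated ones. Each library was taken as 1 mouse. The labels do not state this, and the p-values reflect only how far the libraries of a group lie apart, which may be technical in part.

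Ezetimibe binds NPC1L1, the importer that takes cholesterol from the gut lumen into the brush border of enterocytes. Aster proteins, the products of the Gramd1 genes, then pass this cholesterol on from the cell surface to the endoplasmic reticulum at points where the membranes touch. When sterol in the endoplasmic reticulum is low, SREBP-2 is released and switches on genes for cholesterol synthesis and uptake, while oxysterols activate LXR, which switches on sterol exporters such as Abca1 and Abcg5. The drug and the knockout therefore act on successive steps of the same route.

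The targeted genes were first checked in every group. Gramd1b, which encodes Aster-B, had normalised counts of 3784, 2274, 4046 and 2608 in WT control, 2859, 2995, 3697 and 3412 in WT ezetimibe, 1247, 962 and 1229 in KO control, and 1763, 1754, 2086 and 1744 in KO ezetimibe. All KO libraries were below all WT libraries, and the KO ezetimibe libraries were all above the KO control libraries. Its interaction was 0.62 ± 0.238 (log2 ± SE) with an unadjusted p of 0.0191 and an adjusted p of 0.681, and was 0.16 with the length slope of each library, described below, as a covariate. Gramd1c, which encodes Aster-C, averaged 1382 in WT control, 1211 in WT ezetimibe, 143 in KO control and 123 in KO ezetimibe, and its interaction was -0.06 ± 0.337. Gramd1a, which encodes Aster-A and was not targeted, averaged 243 and 263 in WT and 138 and 199 in KO, with an interaction of 0.42 ± 0.254, or 0.23 without KO control 1. Gene-level counts do not show which exons the remaining Gramd1b reads cover.

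Depth, as whole reads recovered from the table, was 13855034 to 19307079 reads per library. Epithelial markers were high in every library, with Vil1 between 58239 and 97410. The libraries differed in how expression depended on transcript length. Each gene's log2 deviation from its mean over all libraries was set against the log2 length of its longest transcript, and the slope, in log2 units per doubling of length, lay between -0.103 and -0.0302 in the 3 KO control libraries and between 0.0212 and 0.0943 in the 4 KO ezetimibe libraries, with no overlap. The WT libraries spanned -0.0584 to 0.0101 on the control diet and -0.0107 to 0.046 on ezetimibe. Ribosomal protein genes, which have short transcripts, took 1.49% to 2.17% of the signal in KO control and 0.589% to 1.25% in KO ezetimibe, against 1.15% to 2.08% and 1.05% to 1.74% in WT. Values are given below with the length trend removed, with the slope of each library as a covariate and with libraries left out. The slopes separate the 2 KO groups, so the covariate and the drug effect in KO cannot be fully told apart. The part of this difference in the results was not tested beyond these values.

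**Figure D1:**
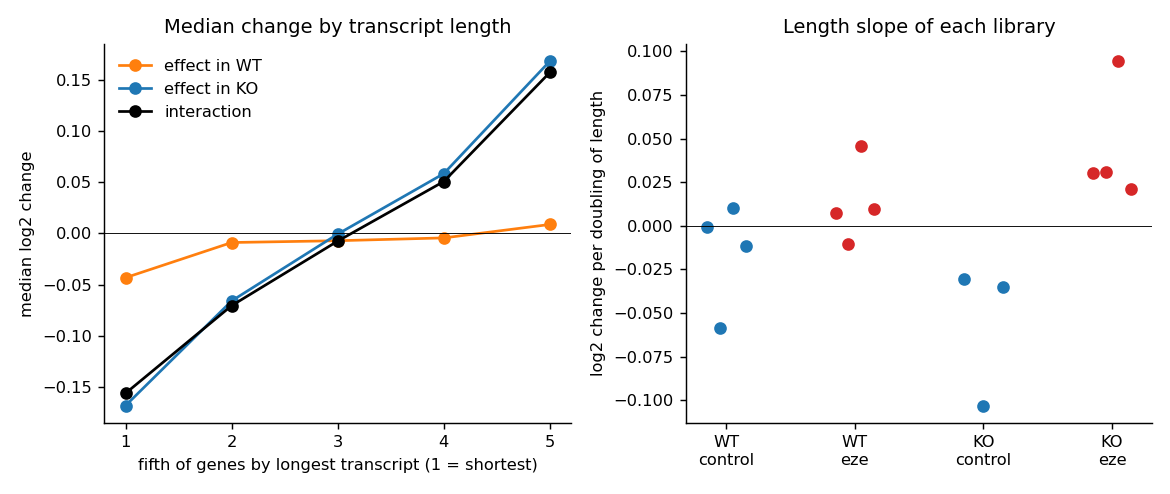
Left, the median log2 change (y axis) in 5 equal groups of genes ordered by the length of their longest annotated transcript (x axis, 1 = shortest), for the ezetimibe effect in WT, in KO and for the interaction. Right, the slope of log2 deviation from the gene mean per doubling of length in each library (points). The interaction medians ran from -0.156 in the shortest group to 0.157 in the longest, and the KO control and KO ezetimibe slopes did not overlap.

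No gene was called for the interaction. In limma, 0 of 14299 genes (0%) had an adjusted p under 0.05, the smallest unadjusted p was 0.000122 and the smallest adjusted p was 0.681. An unadjusted p under 0.05 was reached by 1004 genes (7.02%), of which 554 (3.87%) had a positive and 450 (3.15%) a negative interaction. edgeR's quasi-likelihood test on the recovered reads called 0 genes, with 1034 at an unadjusted p under 0.05, and limma-voom called 0, with 1052. The number at an unadjusted p under 0.05 depended on single libraries: it was 576 without KO control 2, 648 without WT ezetimibe 2, and 1521 without KO control 3. It was 457 without the libraries at the ends of the length slope and 564 with the length slope as a covariate. DESeq2 called 5, all positive: Fosb (adjusted p = 0.000462), Bco1 (0.00202), Naip6 (0.0229), Kansl1 (0.0292) and Ccne2 (0.0354). The intervals state what differences remain possible. The median 95% interval of an interaction reached 0.558 log2 units to either side of its estimate. By mean level, the median reach was 2.14-fold for the 4211 genes under a normalised count of 50, 1.43-fold for the 5388 genes from 50 to 500, 1.27-fold for the 4222 genes from 500 to 5000 and 1.32-fold for the 478 genes above that.

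The components of the interaction were called in each genotype. In WT, 31 genes (0.217%) passed, of which 29 rose and 2 fell. In KO, 104 genes (0.727%) passed, of which 62 rose and 42 fell. The KO number rests heavily on single libraries: it lay between 5 and 456 when each library was left out in turn, was 54 after the length trend was removed and was 3 without the libraries at the ends of the length slope (KO control 2 and KO ezetimibe 3). The WT number lay between 17 and 60 with each library left out. There were 18 genes called in both genotypes, 13 called in WT and not in KO, and 86 called in KO and not in WT. A call in a single genotype does not show a difference between genotypes, and none of these genes passed the interaction test in limma. DESeq2 called the interaction of 4 of the 86 genes (Fosb, Naip6, Kansl1 and Ccne2), beside 5 of 14288 over all genes. The 86 were picked by their KO effect, which the interaction contains, so this is not independent support.

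The effects in WT and KO come from separate libraries and can be set side by side. Their p-values, however, share a single estimate of spread per gene. A call in WT or KO favours a small spread, which also lowers the p in the other genotype. All 31 genes called in WT had the same sign in KO, 30 of them with an unadjusted KO p under 0.05, and 27 had a smaller change in KO. Over all tested genes, 8952 of 14299 had the same sign in both genotypes. The median size of the change over those 31 genes was 1.10 log2 units in WT and 0.92 in KO. Genes picked for a call in WT tend to have large WT estimates, so this ordering follows in part from the choice. Of the 104 genes called in KO, 94 had the same sign in WT and 48 of those had an unadjusted WT p under 0.05. Over all tested genes, such a p was reached with a positive or negative estimate by 3.14% and 1.94% in WT, and by 11.8% and 11.2% in KO.

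**Figure D2:**
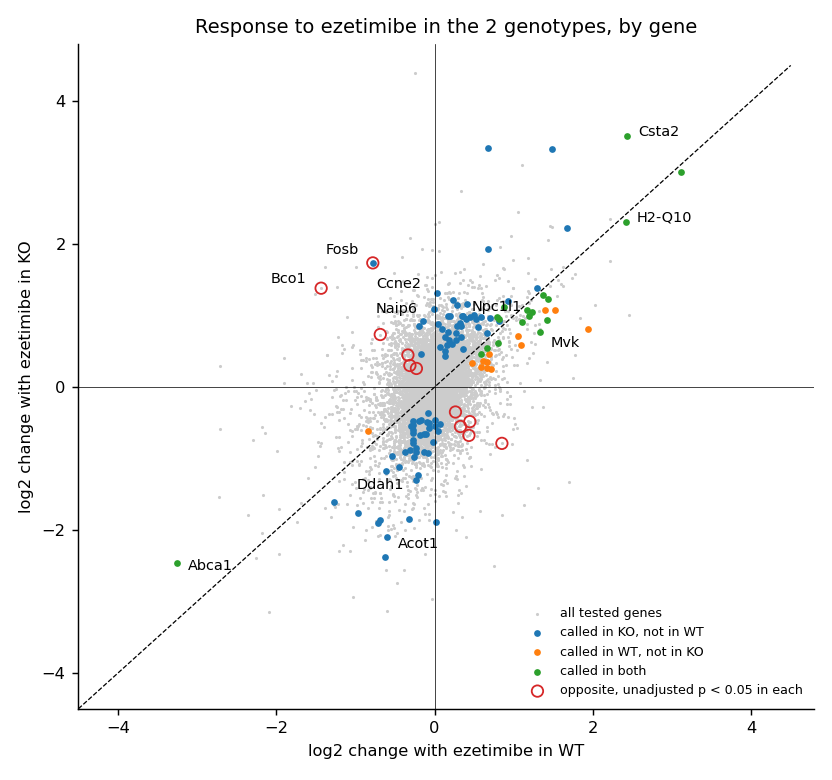
The ezetimibe effect in WT (x axis) against that in KO (y axis), both as log2 change, for 14299 genes. Colours mark the 18 genes called in both genotypes, the 13 called in WT and not in KO and the 86 called in KO and not in WT. Open circles mark the 11 genes with opposite signs and an unadjusted p under 0.05 in each, and the dashed line marks equal effects. The genes called in both lie near the dashed line, with Abca1 at the lower left.

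Cholesterol synthesis genes rose with ezetimibe in both genotypes. All 20 genes of the list had positive estimates in WT and in KO, 11 were called in WT and 9 in KO, and in each genotype 18 reached an unadjusted p under 0.05. Over all tested genes, an unadjusted p under 0.05 came with a positive estimate in 3.14% and a negative one in 1.94% in WT, and in 11.8% and 11.2% in KO. The list's median effect was 0.84 in WT and 0.69 in KO, beside -0.0096 and 0.0056 over all tested genes. For the interaction, 14 of the 20 estimates were negative, and the median was -0.15 beside 0.0075 over all genes. An unadjusted interaction p under 0.05 was reached by 1 gene, beside 7.02% over all genes.

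That gene was Mvk, mevalonate kinase. Its normalised counts were 129, 163, 146 and 160 in WT control, 361, 411, 349 and 389 in WT ezetimibe, 213, 242 and 222 in KO control, and 358, 338, 438 and 414 in KO ezetimibe. The ezetimibe groups overlapped, while every KO control library was above every WT control library. Mvk rose by 1.33 ± 0.111 in WT (adjusted p = 1.97e-05) and by 0.77 ± 0.12 in KO (adjusted p = 0.0155). The interaction was -0.56 with a 95% interval from -0.91 to -0.22 (unadjusted p = 0.00342, adjusted p = 0.681). Fdft1, which makes squalene, and Mvd, which makes isopentenyl diphosphate, followed with interactions of -0.49 ± 0.249 and -0.51 ± 0.266. Fdft1 rose in both genotypes (1.43 and 0.94), and Mvd was called in WT (1.10) and had an estimate of 0.59 in KO (adjusted p = 0.1).

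Sqle, the oxygenase that commits squalene to sterol, had an interaction estimate near 0. Its counts were 340, 631, 847 and 750 in WT control, 1622, 1626, 1321 and 1746 in WT ezetimibe, 845, 947 and 773 in KO control, and 1624, 1986, 2788 and 2087 in KO ezetimibe. In each genotype the diet groups did not overlap. The interaction was -0.08 with an interval from -0.78 to 0.62, so a difference of that size in either direction remains possible. Insig1, which retains the SREBP complex in the endoplasmic reticulum, gave a narrower interval, -0.10 from -0.53 to 0.33, with increases of 1.17 in WT and 1.07 in KO. Its counts were 581, 583, 767 and 933 in WT control and 1353 to 1803 in WT ezetimibe, then 1374, 1359 and 1184 in KO control and 2479 to 3014 in KO ezetimibe. The KO control libraries were all above the WT control libraries. Srebf2, which encodes SREBP-2 itself, rose by 0.80 in WT and 0.62 in KO, with an interaction of -0.18 ± 0.166. Msmo1 (0.87 and 1.12) and Nsdhl (0.82 and 0.96), which remove sterol methyl groups, also rose in both.

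The start sites of these genes are shown for the sterol response. Each window holds 250 bases before and 50 after the RefSeq start on GRCm38.p6, written 5′ to 3′ on the gene's strand, and was searched on both strands for TCACCCCA, a sterol element, and CCAAT, the NF-Y box, which reads ATTGG on the other strand. Matches are in capitals. Srebf2 (chr15:82147019-82147318, plus strand) was called in both genotypes, Mvk (chr5:114444019-114444318, plus strand) had the smallest interaction p of the synthesis list, and Npc1l1 (chr11:6230196-6230495, minus strand) encodes the drug's target.
Srebf2: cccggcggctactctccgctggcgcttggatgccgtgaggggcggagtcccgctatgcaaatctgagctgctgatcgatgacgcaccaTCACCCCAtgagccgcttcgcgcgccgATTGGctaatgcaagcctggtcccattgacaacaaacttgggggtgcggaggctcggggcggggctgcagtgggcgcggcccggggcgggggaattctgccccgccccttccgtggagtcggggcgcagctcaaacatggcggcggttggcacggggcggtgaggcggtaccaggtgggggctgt
Mvk: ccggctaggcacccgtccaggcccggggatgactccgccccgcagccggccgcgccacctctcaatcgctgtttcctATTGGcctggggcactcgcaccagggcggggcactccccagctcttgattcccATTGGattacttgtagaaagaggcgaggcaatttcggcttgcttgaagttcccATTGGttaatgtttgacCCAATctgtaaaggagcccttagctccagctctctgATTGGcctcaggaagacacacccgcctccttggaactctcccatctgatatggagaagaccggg
Npc1l1: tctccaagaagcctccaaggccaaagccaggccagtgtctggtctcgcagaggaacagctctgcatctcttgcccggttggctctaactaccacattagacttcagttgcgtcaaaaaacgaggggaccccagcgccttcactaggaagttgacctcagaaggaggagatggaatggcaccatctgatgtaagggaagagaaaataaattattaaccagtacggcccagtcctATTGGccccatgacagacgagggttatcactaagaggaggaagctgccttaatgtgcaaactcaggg
Srebf2 held 1 sterol element and 1 CCAAT box, Mvk held 5 CCAAT boxes, and Npc1l1 held 1. Of 32851 mouse windows, 1.56% held TCACCCCA and 37.4% held CCAAT. Of the 20 synthesis genes 15 had a window, of which 14 held CCAAT and 1 (Hmgcs1) held TCACCCCA. These are matches of letters and not sites shown to be bound.

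Abca1, the LXR target that exports cholesterol, fell most in both genotypes among called genes. Its counts were 2299, 1556, 1735 and 1446 in WT control, 213, 128, 196 and 196 in WT ezetimibe, 601, 439 and 641 in KO control, and 115, 84.7, 105 and 98.0 in KO ezetimibe. The 4 groups did not overlap, and KO control lay between WT control and WT ezetimibe. It fell by 3.26 ± 0.18 in WT (adjusted p = 9.51e-08) and by 2.46 ± 0.194 in KO (adjusted p = 1.86e-05), giving an interaction of 0.80 with an interval from 0.24 to 1.37 (unadjusted p = 0.00808). The estimate lay between 0.64 and 0.91 with each library left out, was 0.46 with the length slope as a covariate, and no alternative gave an adjusted p under 0.282. Abcg5 and Abcg8 together form the transporter that returns sterol to the lumen. Abcg5 fell in WT, from a mean of 5169 to 2891, with -0.62 in KO (adjusted p = 0.0553). Its interaction was 0.22 ± 0.199, and that of Abcg8 was 0.49 ± 0.286. With the length slope as a covariate they were -0.098 and 0.17.

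Other sterol handling genes had small unadjusted p-values. Npc1l1, the target of ezetimibe, had counts of 18129, 13905, 16324 and 13664 in WT control, 19800, 16502, 22690 and 16851 in WT ezetimibe, 15432, 12626 and 19462 in KO control, and 27277, 26229, 35340 and 25474 in KO ezetimibe. Every KO ezetimibe library was above the 11 others, whose groups overlapped. Npc1l1 rose by 0.86 ± 0.168 in KO (adjusted p = 0.0423) and had 0.29 ± 0.156 in WT (adjusted p = 0.999), with an interaction of 0.57 from 0.09 to 1.06 (unadjusted p = 0.0239). With each library left out it lay between 0.42 and 0.73, and its lowest value under any alternative was 0.14. Npc1, which releases cholesterol from lysosomes, had an interaction of 0.87 ± 0.298 and Npc2, its soluble partner, -0.34 ± 0.158, so the partners pointed in opposite directions. Npc1 was 0.57 without KO control 2, and with the length slope as a covariate Npc1 was 0.53 and Npc2 -0.091.

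**Figure D3:**
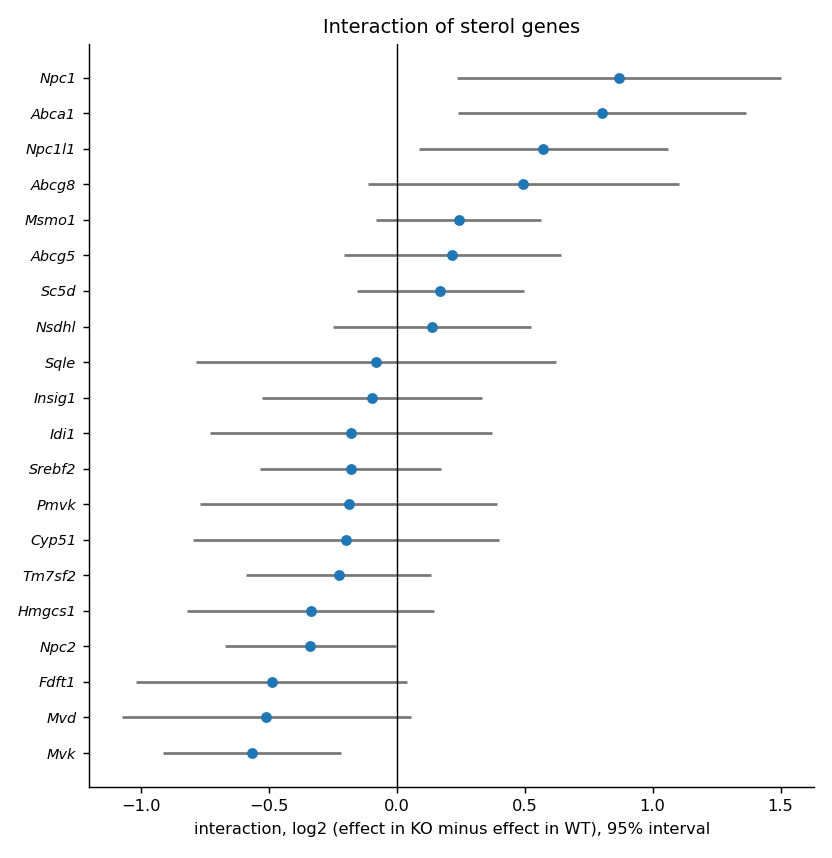
Interaction estimates (points) with 95% intervals (lines) on the log2 scale for 12 genes of cholesterol synthesis and 8 genes of sterol uptake, feedback and export. Mvk and Npc2 lie wholly below 0 and Npc1, Abca1 and Npc1l1 wholly above 0, before adjustment for 14299 tests.

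Genes with opposite responses were rare. At an unadjusted p under 0.05 in each genotype, 325 genes had an effect in both, of which 314 had the same sign and 11 had opposite signs. These 11 are 0.0769% of the genes tested. They are Fosb, Bco1, Ttc17, Xk, Plk4 and Tube1, with lower values on ezetimibe in WT and higher values in KO, Sphk1, Sh3tc1, Znhit2 and Cd14, with the reverse, and the gene model Gm37423. None passed the interaction test in limma. The number lay between 5 and 21 with each library left out and was 7 with the length trend removed.

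Fosb, an AP-1 subunit of the immediate early class (chromosome 7, 19302696 to 19310051, minus strand, mm10), had the smallest interaction p of all genes. Its counts were 438, 172, 518 and 148 in WT control, 177, 187, 130 and 152 in WT ezetimibe, 88.5, 68.8 and 109 in KO control, and 260, 363, 367 and 214 in KO ezetimibe. WT control was split, with 2 libraries far above WT ezetimibe and 2 within its range, whereas the KO groups did not overlap. The WT estimate was -0.78 ± 0.337 (adjusted p = 0.91), and Fosb rose by 1.74 ± 0.364 in KO (adjusted p = 0.0475). The interaction was 2.52 from 1.46 to 3.57 (unadjusted p = 0.000122, adjusted p = 0.681). The KO call held in 7 of the 15 fits that left out a library. The 17 tested immediate early genes had a median interaction of 0.081. An unadjusted interaction p under 0.05 was reached by 2 of them, Fosb and Klf4, each with a positive interaction, beside 3.87% over all genes. Egr1, another immediate early factor, had -1.61 ± 1.02.

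Bco1 encodes the enzyme that cleaves beta-carotene into retinal, and lies on chromosome 8 (117095854 to 117133720, plus strand). Its counts were 181, 116, 39.1 and 64.2 in WT control, 46.5, 22.5, 26.4 and 33.4 in WT ezetimibe, 26.8, 31.7 and 44.4 in KO control, and 61.0, 92.2, 146 and 76.7 in KO ezetimibe. The WT groups overlapped through a single control library and the KO groups did not overlap. The estimates were -1.43 ± 0.395 in WT (adjusted p = 0.349) and 1.38 ± 0.427 in KO (adjusted p = 0.084), and the interaction was 2.82 from 1.58 to 4.05 (unadjusted p = 0.000192). It lay between 2.46 and 3.19 with each library left out. Isx, the transcription factor known to repress Bco1 in the intestine, averaged 1510 and 1516 in WT and 1498 and 1375 in KO, with an interaction of -0.14 ± 0.154. Retsat, a retinol saturase, had -0.57 ± 0.258.

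Among genes pointing the other way, Sphk1, which makes sphingosine-1-phosphate, had counts of 303, 290, 363 and 287 in WT control, 312, 470, 408 and 381 in WT ezetimibe, 570, 512 and 441 in KO control, and 356, 353, 266 and 421 in KO ezetimibe. The KO groups did not overlap and the WT groups overlapped. Its interaction was -0.88 ± 0.219 (unadjusted p = 0.00107). Sh3tc1 had -1.11 ± 0.28 and Cd14, the co-receptor for lipopolysaccharide, -0.93 ± 0.291. Cd14 counts were 62.1 to 74.2 in WT control and 84.5 to 104 in WT ezetimibe, without overlap, then 83.4, 100 and 148 in KO control and 57.8 to 108 in KO ezetimibe, which overlapped.

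Genes called in KO and not in WT are described next, and the interaction shares its KO libraries with those calls. Naip6, a sensor of bacterial proteins in the inflammasome (chromosome 13, 100281121 to 100317674, minus strand), had counts of 3982, 3867, 3414 and 2847 in WT control, 2939, 3143, 4964 and 3168 in WT ezetimibe, 2013, 1987 and 2322 in KO control, and 4123, 4995, 4504 and 4356 in KO ezetimibe. KO control was below all other libraries, and KO ezetimibe was above all WT libraries except WT ezetimibe 3. Naip6 rose by 1.09 ± 0.16 in KO (adjusted p = 0.00953), with -0.01 ± 0.148 in WT, and the interaction was 1.10 from 0.64 to 1.57 (unadjusted p = 0.000126). Without WT ezetimibe 3 the interaction was 1.28 with an adjusted p of 0.0193, the single call in any fit that left out a library. Naip genes are close copies of each other, so how reads were shared among them is uncertain.

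Ccne2, the cyclin E2 that drives entry into DNA synthesis, had counts of 159, 162, 135 and 173 in WT control, 195, 124, 197 and 138 in WT ezetimibe, 113, 128 and 153 in KO control, and 310, 339, 439 and 245 in KO ezetimibe. All 4 KO ezetimibe libraries were above the 11 others. It rose by 1.32 ± 0.201 in KO (adjusted p = 0.0135), and the interaction was 1.28 from 0.70 to 1.86 (unadjusted p = 0.000263). Kansl1, a scaffold of a histone acetyltransferase complex, had 457 to 550 in WT control, 426 to 493 in WT ezetimibe, 375, 388 and 424 in KO control and 507 to 584 in KO ezetimibe. It rose by 0.46 in KO (adjusted p = 0.0479) and had -0.16 ± 0.091 in WT, with an interaction of 0.63 ± 0.134.

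Genes that fell in KO included Ddah1, which degrades the nitric oxide synthase inhibitor ADMA. Its counts were 160, 212, 171 and 127 in WT control, 107, 143, 154 and 174 in WT ezetimibe, 587, 446 and 459 in KO control, and 175, 179, 228 and 274 in KO ezetimibe. KO control stood above all other libraries, and KO ezetimibe overlapped WT. Ddah1 fell by 1.23 ± 0.203 in KO (adjusted p = 0.0192) and had -0.21 ± 0.188 in WT. The interaction was -1.01 ± 0.276 (unadjusted p = 0.00215). Cxcl16, a chemokine that is also a scavenger receptor, had 325, 322, 326 and 295 in WT control, 350, 293, 268 and 351 in WT ezetimibe, 537, 461 and 430 in KO control, and 235, 310, 267 and 311 in KO ezetimibe. Again KO control alone stood apart, with an interaction of -0.75 ± 0.176 (unadjusted p = 0.000633). Il1rn, the interleukin 1 receptor antagonist, fell by 1.84 in KO from low counts (16.2 to 26.0 against 3.50 to 6.39). It had -0.33 ± 0.298 in WT, and the interaction was -1.51 ± 0.439. In Ddah1 and Cxcl16 the KO control libraries were the ones apart from the WT range, and the KO ezetimibe libraries overlapped it.

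**Figure D4:**
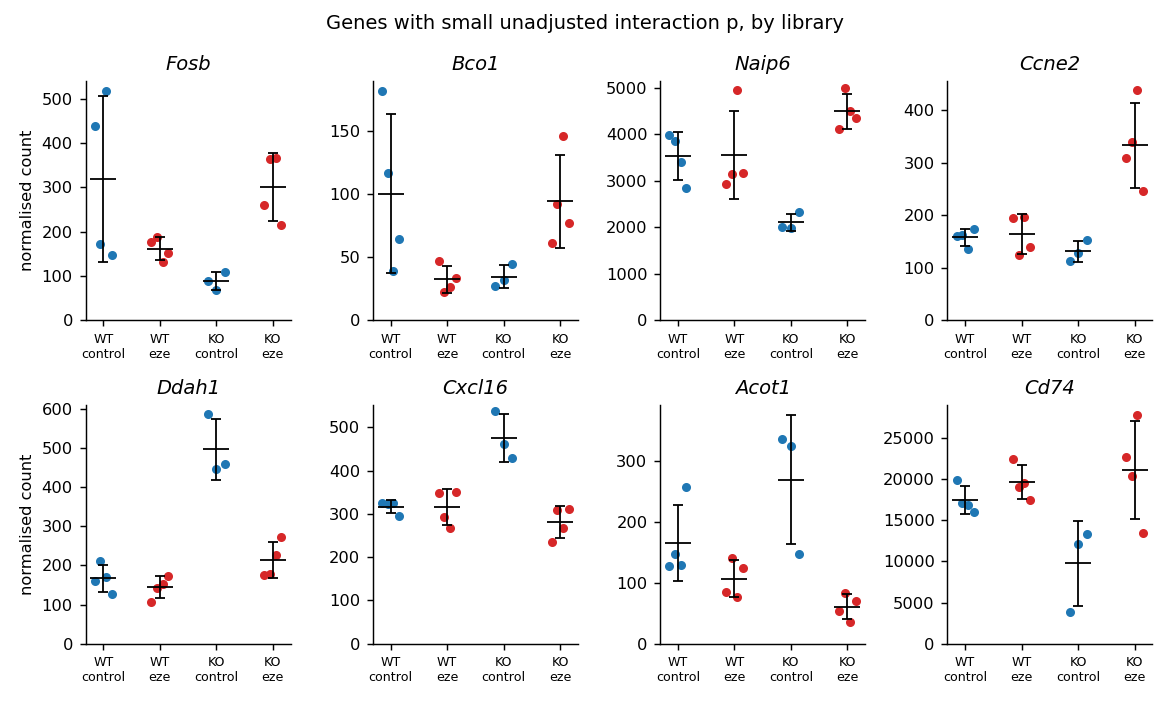
Normalised counts (y axis, linear) in each library for 8 genes in the 4 groups. Points are libraries (blue control, red ezetimibe), and bars give the mean and SD. The groups hold 4, 4, 3 and 4 libraries from left to right. For Ddah1 and Cxcl16 the KO control libraries lie above all others, and for Ccne2 the KO ezetimibe libraries do.

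Fatty acid oxidation genes, many of them targets of the fatty acid receptor PPAR alpha, had the most negative interactions by count among the 36 lists. Of 20 tested genes, 9 had a negative interaction at an unadjusted p under 0.05 and 0 a positive one, beside 3.15% and 3.87% over all genes. The median was -0.29 for the interaction, -0.078 in WT and -0.46 in KO. In KO, 18 of the 20 estimates were negative and 4 of these genes were called. A negative effect at an unadjusted p under 0.05 was found for 12 in KO, beside 11.2% over all genes. Acot1, which splits acyl-CoA, had counts of 127, 147, 130 and 257 in WT control, 85.5, 141, 76.4 and 124 in WT ezetimibe, 335, 325 and 147 in KO control, and 53.5, 83.6, 36.2 and 70.3 in KO ezetimibe. The KO groups did not overlap, and KO control 3 was within the WT control range. Acot1 fell by 2.10 ± 0.344 in KO (adjusted p = 0.0192), with -0.61 ± 0.318 in WT, and the interaction was -1.49 ± 0.469 (unadjusted p = 0.0059), or -0.87 with the length slope as a covariate. Acot2, its close copy, and Acaa1b, the peroxisomal thiolase, also fell in KO, with interactions of -0.68 ± 0.274 and -1.07 ± 0.386. Their WT estimates were also negative, at -0.45 ± 0.186 and -0.23 ± 0.262. Reads shared between Acot1 and Acot2 are uncertain.

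Cyp4a10, a fatty acid hydroxylase and PPAR alpha target, had counts of 203, 153, 53.6 and 295 in WT control, 81.7 to 199 in WT ezetimibe, 395, 367 and 193 in KO control, and 71.8 to 95.9 in KO ezetimibe. Its KO estimate was -1.86 (adjusted p = 0.0553) and its interaction -1.79 ± 0.605. Cpt1a, which admits fatty acids to mitochondria, had -0.15 ± 0.172. The list's summed normalised count was 67995 to 76567 in KO control and 56599 to 64933 in the 3 other groups. The list's median interaction shifted under each alternative by less than the spread of its mean log2 level between replicates. Ribosomal protein genes, a separate set, also pointed down. All 74 tested had negative interactions, with a median of -0.55. An unadjusted interaction p under 0.05 was reached by 10 of them, beside 3.15% with a negative interaction over all genes. The median effect of the 74 genes was -0.26 in WT and -0.82 in KO. Their part in the result was not tested.

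Interferon genes gave close counts in the 2 genotypes. Of 28 type I and III response genes, 26 had a positive effect at an unadjusted p under 0.05 in WT and 26 in KO. The shares over all genes differed, at 3.14% in WT and 11.8% in KO. In each genotype 1 of the 28 was called. The medians were 1.18 in WT, 0.95 in KO and -0.041 for the interaction. At an unadjusted interaction p under 0.05 there was 1 gene, beside 7.02% over all genes. That gene, Mx1, an antiviral GTPase, had 0.78 ± 0.344. Isg15, a ubiquitin-like modifier, had counts of 689, 429, 634 and 465 in WT control, 950, 1601, 1569 and 1758 in WT ezetimibe, 439, 325 and 553 in KO control, and 1026, 1059, 1173 and 533 in KO ezetimibe. WT groups did not overlap, and KO ezetimibe 4 was within the KO control range. Isg15 rose by 1.40 ± 0.255 in WT (adjusted p = 0.0275), had 1.08 ± 0.276 in KO (adjusted p = 0.0574), and had an interaction of -0.32 from -1.11 to 0.48. Its start window (chr4:156200769-156201068, minus strand, 250 bases before and 50 after the RefSeq start, GRCm38.p6) is shown because it carries 3 overlapping matches to an interferon element, GAAA and GAAA with any 2 bases between them, in capitals.
Isg15: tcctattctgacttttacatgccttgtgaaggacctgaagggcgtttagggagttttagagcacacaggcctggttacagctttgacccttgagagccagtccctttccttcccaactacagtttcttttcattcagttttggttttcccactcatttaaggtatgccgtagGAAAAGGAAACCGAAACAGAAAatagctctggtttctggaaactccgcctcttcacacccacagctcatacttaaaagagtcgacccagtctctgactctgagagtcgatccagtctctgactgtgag
This motif was in 3.44% of 32851 windows and in 10 of the 19 windows found for the 28 interferon genes, both strands searched.

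The interferon gamma list had 18 positive effects of 18 in each genotype, with medians of 0.70 in WT and 1.10 in KO, and an interaction median of 0.23. Its smallest interaction p belonged to Gbp4, a guanylate-binding GTPase that rose in KO (1.00), with 0.66 ± 0.217. Gbp4 had 0.34 ± 0.147 in WT. MHC class I genes had medians of 0.48 and 0.57, and H2-Q10 rose in both (2.42 and 2.31). H2-Q genes are close copies, so their reads may be split. MHC class II genes, which present antigen to CD4 T cells, had medians of 0.19 in WT and 0.92 in KO and an interaction median of 0.73. Of 9 tested, 3 had a positive and 0 a negative interaction at an unadjusted p under 0.05, beside 3.87% and 3.15% over all genes. Cd74, the invariant chain, had counts of 15965 to 19806 in WT control, 17449 to 22381 in WT ezetimibe, 3871, 12103 and 13267 in KO control, and 13424 to 27791 in KO ezetimibe. KO control 1 was far below the rest. The Cd74 interaction was 1.09 ± 0.443. Without KO control 1 it was 0.52, and the list's median was 0.18.

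Markers of other cells give the context of these values, and in bulk tissue fewer cells of a type and less RNA per cell cannot be told apart. The 12 myeloid genes had medians of -0.38 in WT, -1.28 in KO and -0.92 for the interaction. In KO, 9 were negative at an unadjusted p under 0.05, beside 11.2% over all genes. Their summed count was 1027 to 1258 in KO control and 437 to 674 in KO ezetimibe, without overlap, and 668 to 1571 and 692 to 1024 in WT. C1qc, a complement subunit made by macrophages, had counts of 47.7, 127, 52.5 and 103 in WT control, 28.3 to 49.8 in WT ezetimibe, 63.3, 76.9 and 127 in KO control, and 14.0 to 30.9 in KO ezetimibe. C1qc fell by 1.77 in KO (adjusted p = 0.0479) and had -0.97 ± 0.348 in WT, with an interaction of -0.80 ± 0.512. The list's median interaction was -0.061 with the length slope as a covariate. Apoe, an apolipoprotein that macrophages also make, fell in KO, from a mean of 1266 to 372. Apoe averaged 947 and 547 in WT (-0.68 ± 0.38), and its interaction was -1.18 ± 0.559. Its KO call held in 3 of the 15 fits that left out a library and that of C1qc in 5. With the length slope as a covariate the interactions of Apoe and C1qc were -0.12 and -0.018. The 18 T and NK cell genes had medians of 0.44 and 0.52 and an interaction median of 0.064.

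Paneth cell genes had a positive interaction median, 0.90, with medians of -0.98 in WT and -0.14 in KO. Of 12 tested, 0 were called for the interaction. A negative effect at an unadjusted p under 0.05 was found for 8 in WT and 0 in KO, beside 1.94% and 11.2% over all genes, and these counts do not test a difference. Only Ang4, a secreted antimicrobial ribonuclease, had an unadjusted interaction p under 0.05 (1.32 ± 0.543). The summed count was 23461 to 73700 in WT control, 11373 to 43391 in WT ezetimibe, 12382 to 20246 in KO control and 9845 to 16806 in KO ezetimibe, so WT control lay above both KO groups and overlapped WT ezetimibe. Proliferation genes had medians of -0.27 in WT, 0.29 in KO and 0.61 for the interaction. Of 20 tested, 6 had a positive and 0 a negative interaction at an unadjusted p under 0.05, beside 3.87% and 3.15% over all genes. Bub1, a mitotic checkpoint kinase, had counts of 28.6, 75.4, 61.8 and 102 in WT control, 34.8 to 51.6 in WT ezetimibe, 8.93, 19.0 and 21.7 in KO control, and 31.1, 39.7, 21 and 27.7 in KO ezetimibe. Its groups overlapped within each genotype, and the interaction was 1.36 ± 0.515.

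Enterocyte genes had a median interaction of 0.44, with 14 of 16 positive. At an unadjusted p under 0.05, 2 were positive and 0 negative, beside 3.87% and 3.15% over all genes. The median was 0.18 with the length slope as a covariate and 0.23 with quantile normalisation. Among genes of this list, Mgam, a starch-digesting maltase, had 0.61 ± 0.24 and Slc2a2, the GLUT2 hexose transporter, had 0.52 ± 0.22. Fabp1, a fatty acid binding protein with a short transcript, had -0.49 ± 0.243. Lama3, a laminin subunit of the epithelial basement membrane, had counts of 1347 to 2587 in WT control, 877 to 1539 in WT ezetimibe, 1544, 1054 and 2668 in KO control, and 2373 to 3416 in KO ezetimibe. Both pairs of groups overlapped, and the interaction was 1.39 ± 0.391 (unadjusted p = 0.00273). Circadian clock genes had a median interaction of 0.64 with 0 of 17 at an unadjusted p under 0.05, beside 7.02% over all genes. No time of tissue collection was used here.

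**Figure D5:**
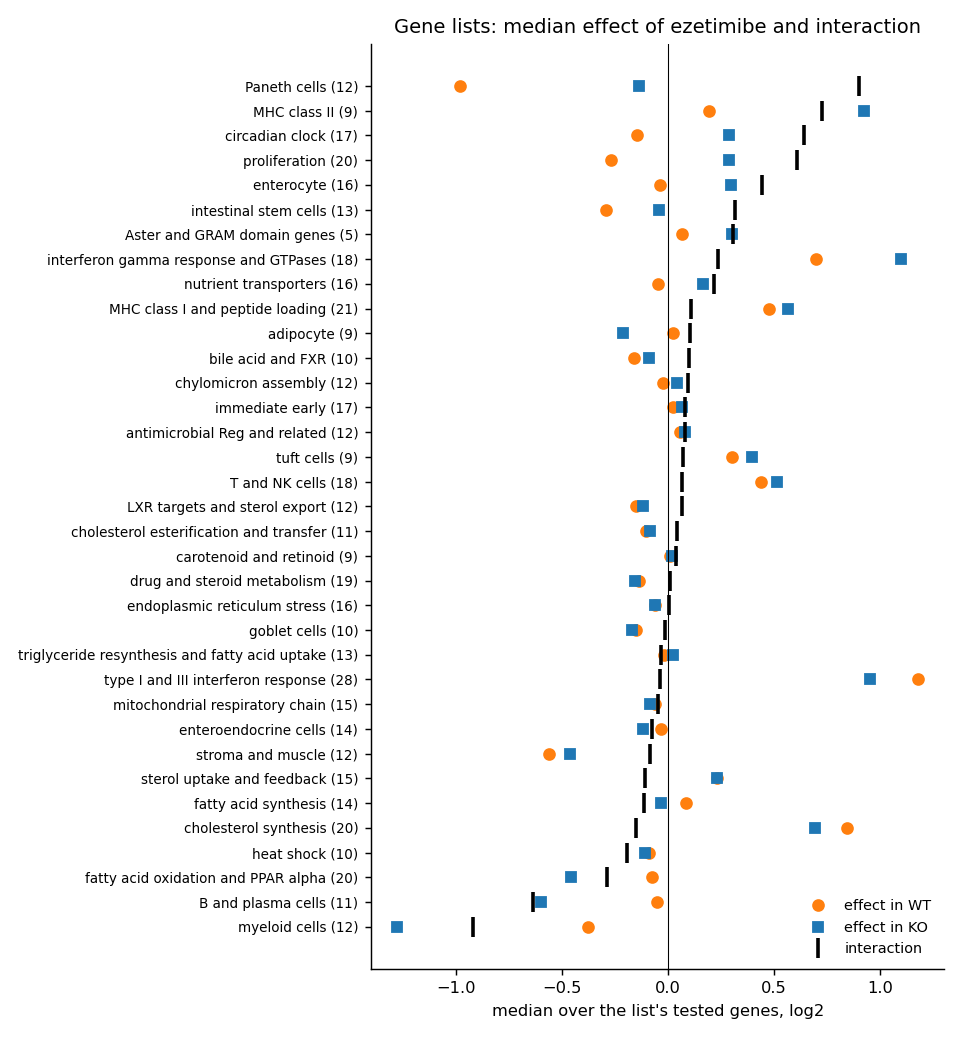
Median ezetimibe effect in WT (circles), in KO (squares) and median interaction (bars) on the log2 scale for gene lists with at least 5 tested genes, with the number tested in brackets. The cholesterol synthesis and both interferon lists have positive median effects in each genotype, the Paneth and MHC class II lists have the highest interaction medians and the myeloid list the lowest.

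The 13 genes called in WT and not in KO all had the same sign in KO, 12 of them at an unadjusted p under 0.05. Over all genes, such a p came with a positive KO estimate in 11.8% and a negative one in 11.2%. They included the synthesis genes Mvd, Hmgcs1 and Tm7sf2, and Erg28, a scaffold of the sterol C4-demethylation enzymes, with interactions of -0.51, -0.34, -0.23 and -0.31. Mospd2, a membrane contact-site protein, and Ogfr, the opioid growth factor receptor, had -0.46 ± 0.178 and -0.38 ± 0.16. All 13 had a smaller estimate in KO, as a call in WT alone favours, and 3 had an unadjusted interaction p under 0.05, beside 7.02% over all genes. Among the 86 genes called in KO and not in WT, 76 had the same sign in WT, 30 of them at an unadjusted p under 0.05. In WT the shares over all genes were 3.14% positive and 1.94% negative. Of the 86, 63 had an unadjusted interaction p under 0.05, which a call in KO alone favours. C4b, a complement component, rose in KO from a mean of 20.4 to 84.1, with 42.6 and 68.1 in WT, and had an interaction of 1.25 ± 0.473. Pla2g7, a lipoprotein-associated phospholipase, fell in KO from 101 to 20.2, with 82.8 and 49.8 in WT, and had -1.76 ± 0.636, or -0.73 with the length slope as a covariate.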

How the data were processed

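RNA was isolated with TRIzol and libraries were built with an NEBNext Ultra II kit, per the labels' protocols. FastQC, STAR 2.6.0c, DESeq2 and mm10 are named in the submitters' processing notes. The sources used here give no read counter, annotation or use of strand, so reads of overlapping and antisense genes were not separated. The authors deposited a signal, DESeq2-normalised counts, and 100% of its values were whole multiples of 1 read per library (tolerance 0.01), so whole reads were recovered. The authors' 2 tables of KO against WT were not used. Identifiers were matched to GENCODE M21 (26825 of 26844).

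limma 3.58.1 with a mean-variance trend was fitted to log2(value + 1) of all 15 libraries in 4 groups, with Benjamini-Hochberg adjustment over 14299 genes. Called means an adjusted p under 0.05. Adding 1 understates the change of low genes. The values are normalised, so this log-scale test was the main one. edgeR 4.0.16, DESeq2 1.42.0 and limma-voom (R 4.3.3) were run on the recovered reads as alternatives, beside other pseudocounts (0.5 and 5), filters and scalings, robust moderation, the replicate block, the compared groups alone and each library left out. Those on transcript length and on the libraries at the ends of the length slope or of the first principal component were chosen after seeing the data. Tests were tried on simulated data.

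The members and lists were chosen with earlier results of these data known. Genes were named by rule: Gramd1a, Gramd1b, Gramd1c, Npc1l1, Abca1 and Insig1, the 12 highest and 12 lowest interactions at p under 0.01 with a group mean of at least 50, up to 10 genes called in each genotype alone, up to 12 with opposite signs, and up to 4 per list. Others, such as Sqle, Cxcl16, Kansl1, Isx, Egr1, Msmo1, Nsdhl, Srebf2 and Apoe, were chosen after their values were seen, and some genes that the rule names are left out here. Promoters are from RefSeq. Figures were drawn with matplotlib 3.10.9.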

Additional observations from a re-analysis of the deposited data

Results flagged for a closer look

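In 5 of 72 groups of 4 libraries examined, over the genes given by library, a single library stood apart from the other 3 by Dixon's test. Chance gives this in about 1 in 20 groups. Naip6 was 4964 in WT ezetimibe 3 and 2939 to 3168 in the others. Acot1 was 257 in WT control 4 and 127 to 147 in the others. Kansl1 was 457 in WT control 2 and 535 to 550 in the others. Gramd1b was 2086 in KO ezetimibe 3 and 1744 to 1763 in the others. Cxcl16 was 295 in WT control 4 and 322 to 326 in the others. The cause was not tested for any of them.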

How the results depend on the processing

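The interaction call count stayed at 0 except for DESeq2 (5) and for the fits with a library left out (0 to 1). With each library left out, the WT count was 17 to 60, the KO count 5 to 456, the genes called in both genotypes 5 to 43 and those with opposite signs 5 to 21. The KO count was lowest without KO control 1 (5), KO ezetimibe 3 (8) or KO control 2 (9), and highest without KO ezetimibe 4 (456), KO control 3 (425) or KO ezetimibe 1 (255). It was 54 with no filter, 330 at a mean of at least 50, 1155 in DESeq2, 41 in limma-voom, 16 with the 2 compared groups alone, 54 with the length trend removed, 1 with the length slope as a covariate, 3 without the libraries at the ends of the length slope and 12 without those at the 2 ends of principal component 1 (WT control 4 and KO ezetimibe 3). DESeq2 called 93 genes in WT. Genes called in both numbered 63 in DESeq2, 10 in limma-voom, 1 with the length covariate, and 3 and 7 without the respective end libraries. Opposite signs numbered 34 with no filter, 7 with the length trend removed and 6 with the length covariate. Of the 104 KO calls, 5 were made in all 15 fits that left out a library (Abca1, Insig1, Msmo1, Csta2 and H2-Q10), as were 14 of the 31 WT calls. The cause was not tested for any of these.

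The labels give replicate numbers without saying that same-numbered libraries belong together, and the main fit did not take them as pairs. Same-numbered libraries deviated from their group means with r between -0.242 and 0.331 (21 pairs, 12 over 0.1). Different-numbered libraries were not compared in this way, so these values do not settle whether the numbers mark a shared factor. With the replicate block 1925 genes had an unadjusted interaction p under 0.05, and the counts were 54 in WT, 1915 in KO, 41 in both and 22 with opposite signs.

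Of 118 genes, 111 kept the sign of their interaction under every alternative run. Many of them were picked by their interaction in these same libraries, which the alternatives reuse, so this is not independent support. With each library left out, Gramd1c ranged from -0.21 to 0.18, Sqle from -0.24 to 0.20, Pmvk from -0.33 to 0.0042 and H2-Q10 from -0.40 to 0.41. Gramd1c was 0.00261 with quantile normalisation, and Sqle was 0.0023 in edgeR and 0.013 in DESeq2. With the length covariate, Cyp51 was 0.035 and Abcg5 -0.098, and Nsdhl was -0.013 without the libraries at the ends of the length slope. The length covariate moved the list medians of proliferation to 1.17, of Paneth cells to 1.96 and of the interferon list to -0.46. It moved those of the enterocyte list to 0.18 and of the Aster list to -0.083. The length covariate moved the interaction of 56 of the 118 genes by over 1.5 times. Removing the length trend did so for 9, and leaving out a library for 3 to 15. Intervals were widest for genes under a count of 50, with a median reach of 2.14-fold, and the part of depth in this was not tested.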
